A study of Rattus norvegicus with 12 samples.

Results

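The SLC25 family is the family of carrier proteins that move metabolites, nucleotides, cofactors and ions across the inner membrane of mitochondria. Genes were taken as members where the array's own gene name began with Slc25a and a number, apart from Slc25a4 and Slc25a5, the adenine nucleotide translocases. This gave 42 genes of the 36174 gene names on the array, measured by 60 probes, and the probe with the highest mean signal over the 12 arrays stood for each gene. Of the 42 members, 29 were well above background on at least 5 arrays and were tested, and 13 were not.

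Each carrier is built from repeats of a pair of membrane-spanning helices and exchanges or co-transports its substrates by switching between a state open to the matrix and a state open to the space between the membranes. The porins of the outer membrane, of which Vdac1 encodes one, let the same small metabolites pass between that space and the cytosol, so that porin and carrier act in series. A few members go against the name of inner membrane carrier: Slc25a46 encodes an outer membrane protein tied to mitochondrial shape, and Slc25a17 encodes a carrier of the peroxisomal membrane.

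The cells were N27, an immortalised rat line of dopaminergic neural origin, and all cultures shared this background. In 7 cultures (KO 1 to 7) Vdac1, the gene of voltage-dependent anion channel 1, had been removed with CRISPR, and 5 cultures (WT 3 and WT 5 to 8) were wild type; all were grown to 80% confluence without a further agent. Total RNA of each culture was labelled with Cy3 and hybridised to a 1-colour Agilent array. The sources used here do not give whether 1 or several edited clones were used, nor whether cultures of a genotype were grown independently, so a p-value measures the spread between these particular cultures, which may be technical. In bulk RNA, fewer cells expressing a gene and less RNA per cell cannot be told apart.

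All signals below are log2 values relative to the array's own 75th percentile, and differences are knockout minus wild type on that log2 scale. The 75th percentile lay between 142.7 and 691.8 intensity units on knockout arrays and between 120.1 and 449.7 on wild-type arrays, and on each array 42.3% to 53.8% of the spots stood well above background. The Vdac1 signal was 2.54, 2.45, 2.68 and 2.26 in KO 1 to 4, 1.21, 1.53 and 1.20 in KO 5 to 7, and 3.61, 3.14, 3.07, 3.16 and 3.07 in WT 3, 5, 6, 7 and 8. Every knockout culture lay below every wild-type culture, by 1.23 ± 0.28 (SE) on average (limma adjusted p = 0.0560; two-sided exact permutation p = 0.00505, n = 7 and 5); the difference was -1.97, -0.58 and -1.38 within slides 1, 2 and 3. Slide 2 held KO 1, 2 and 3 and 1 wild-type culture, WT 5. Transcript from an edited gene can still be made, and the sources used here do not place the probe relative to the edit. Of 10 markers of dopaminergic neurons, 4 were well above background on at least 5 arrays (Th, Slc18a2, Nr4a2 and Aldh1a1), and 4 were so on none (Ddc, Slc6a3, Foxa2 and En1). Of 7 general neuron markers, 2 were well above background on at least 5 arrays (Tubb3 and Eno2), and 3 on none (Map2, Snap25 and Nefl). Astrocyte markers reached that level for 0 of 5 genes, and markers of microglia, oligodendrocytes, fibroblasts and endothelium for 2 of 5, 1 of 5, 2 of 5 and 1 of 4 genes; no gene of these lists passed the test by limma.

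Among the 29 tested carriers, 1 was higher in knockout cultures, Slc25a1, the mitochondrial citrate carrier, and 0 were lower at a limma adjusted p under 0.05. Over all 14743 features tested, 1.09% passed in either direction, 0.699% higher and 0.393% lower. At an unadjusted p under 0.05 limma gave 2 higher carriers, Slc25a1 and Slc25a35, and 1 lower carrier, Slc25a24, against 15.6% of all features. The knockout and wild-type groups did not overlap for 2 carriers, Slc25a1 and Slc25a35, both higher in knockout, against 2.73% of all features. The differences of the 29 carriers ran from -0.52 to 0.75 with a median of 0.069, 16 above 0 and 13 below it; the median of all features was 0.040.

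**Figure D1:**
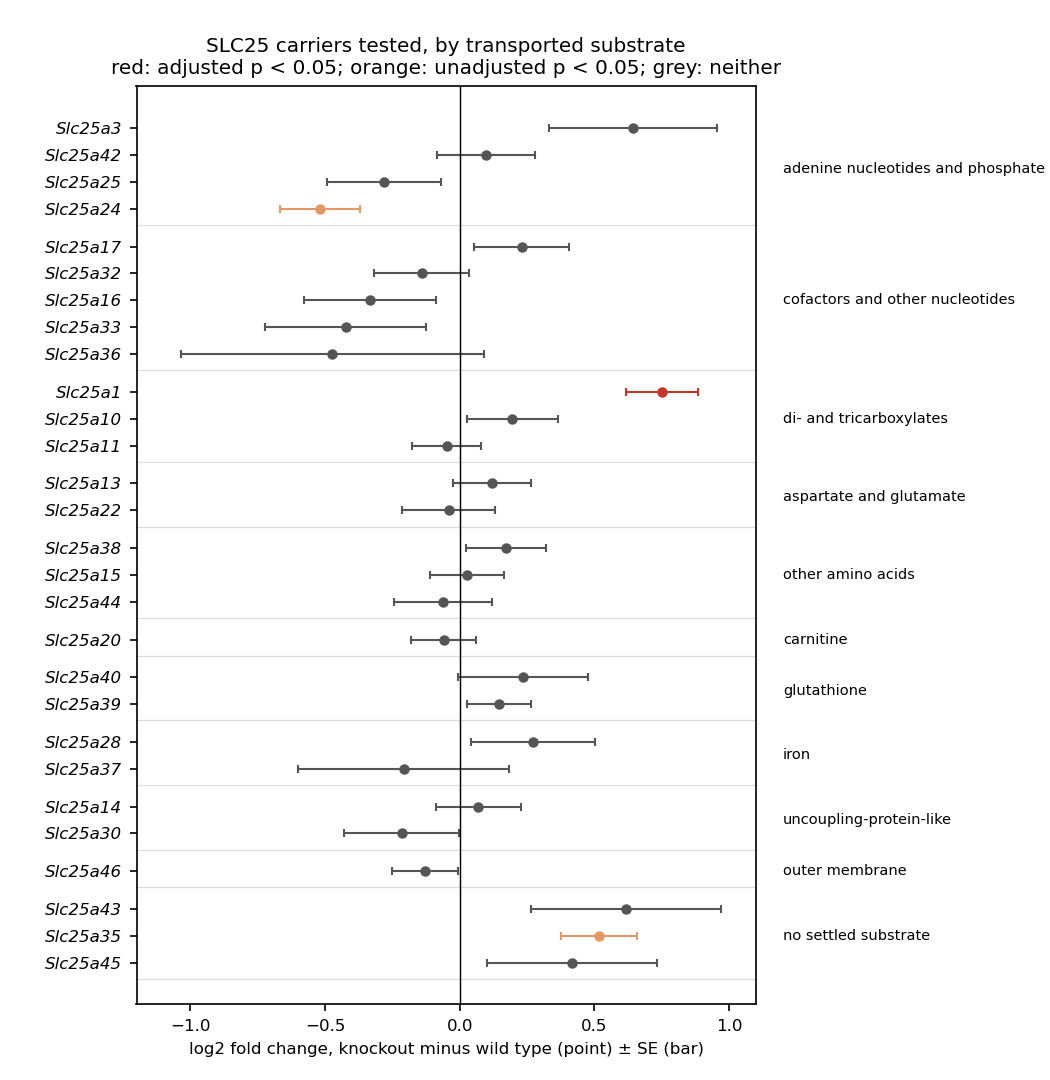
Log2 difference between knockout and wild-type cultures (horizontal axis; point with its SE) for 28 of the 29 tested SLC25 carriers, grouped by transported substrate; red marks an adjusted p under 0.05 and orange an unadjusted p under 0.05. Slc25a1, at 0.75, is the 1 carrier past the adjusted threshold, and the carriers run from -0.52 (Slc25a24) upwards.

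Slc25a1 exports citrate from the matrix in exchange for malate, and citrate in the cytosol is the source of acetyl-CoA for fatty acid and sterol synthesis. Its probe and the 250 bases before its transcription start are shown, since this is the 1 carrier past the adjusted threshold. The call depended on which arrays entered the fit, as given below. The probe (NM_017307) lies at chr11:85045916-85046057 in the files' own coordinates (rn4, per the file headers), starts at base 826 of the transcript, and spells part of the coding sequence. Capitals mark the letters CCNNNNGANNNNNNNAAG, a DNA spelling of the residues that start the sequence motif of the family's repeats; 1 of the 60 member probes held it, as did 0.368% of all 45598 probes on the array.
Slc25a1 probe: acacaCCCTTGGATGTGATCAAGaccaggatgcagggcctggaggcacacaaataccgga
In the window before the start, from RefSeq's GRCr8 table (chr11:96559804-96560053, plus strand), capitals mark the GC box GGGCGG and the CCAAT box on either strand, 5 matches in all.
Slc25a1 promoter: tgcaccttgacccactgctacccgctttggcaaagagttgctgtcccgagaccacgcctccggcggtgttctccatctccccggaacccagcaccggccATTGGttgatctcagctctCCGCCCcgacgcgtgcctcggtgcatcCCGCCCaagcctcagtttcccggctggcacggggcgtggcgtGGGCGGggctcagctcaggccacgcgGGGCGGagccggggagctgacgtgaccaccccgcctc

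The Slc25a1 signal was -0.99, -1.07, -1.17, -1.14, -1.51, -1.21 and -1.05 in KO 1 to 7, and -1.57, -2.13, -2.04, -1.85 and -1.98 in WT 3, 5, 6, 7 and 8. All knockout cultures lay above all wild-type cultures, with KO 5 and WT 3 nearly meeting. The mean was -1.16 ± 0.17 (SD, n = 7) in knockout and -1.91 ± 0.22 (SD, n = 5) in wild type, a rise of 0.75 ± 0.13 (SE) or 1.68-fold (limma adjusted p = 0.0306). The probe was well above background on all 12 arrays. Within slides 1, 2 and 3 the difference was 0.64, 1.05 and 0.63, and with the slide as a block it was 0.75 (limma adjusted p = 0.0217). The value of slide 2 rests on KO 1 to 3 against WT 5 alone. Genotype there cannot be told apart from the pattern by sample number described below. The call was lost when KO 1, 2, 3 or 7 or WT 5, 6, 7 or 8 was left out, with differences of 0.70 to 0.84 over all 12 omissions and limma adjusted p of 0.006 to 0.0994. After normexp background correction the difference was 0.45 (limma adjusted p = 0.197).

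The other carriers of di- and tricarboxylates did not pass. Slc25a10, the dicarboxylate carrier that exchanges malate or succinate for phosphate, differed by 0.20 ± 0.17 (SE; limma adjusted p = 0.604), and Slc25a11, the oxoglutarate-malate carrier of the malate-aspartate shuttle, by -0.049 ± 0.13 (SE; limma adjusted p = 0.896). Slc25a21, the oxodicarboxylate carrier, was well above background on 1 array, WT 8. The enzymes that make and use exported citrate were all tested: 0 of 4 passed, and their median difference was 0.23. Me1, malic enzyme, differed by 0.47 ± 0.24 (SE; limma adjusted p = 0.354) and Acly, ATP citrate lyase, by 0.26 ± 0.14 (SE; limma adjusted p = 0.373). Me1 was 0.46 in WT 3, within the range of KO 1 to 4, and -0.54, -0.70, -0.68 and -0.62 in WT 5 to 8. In KO 5 to 7 it was -0.30, -0.08 and -0.54.

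**Figure D2:**
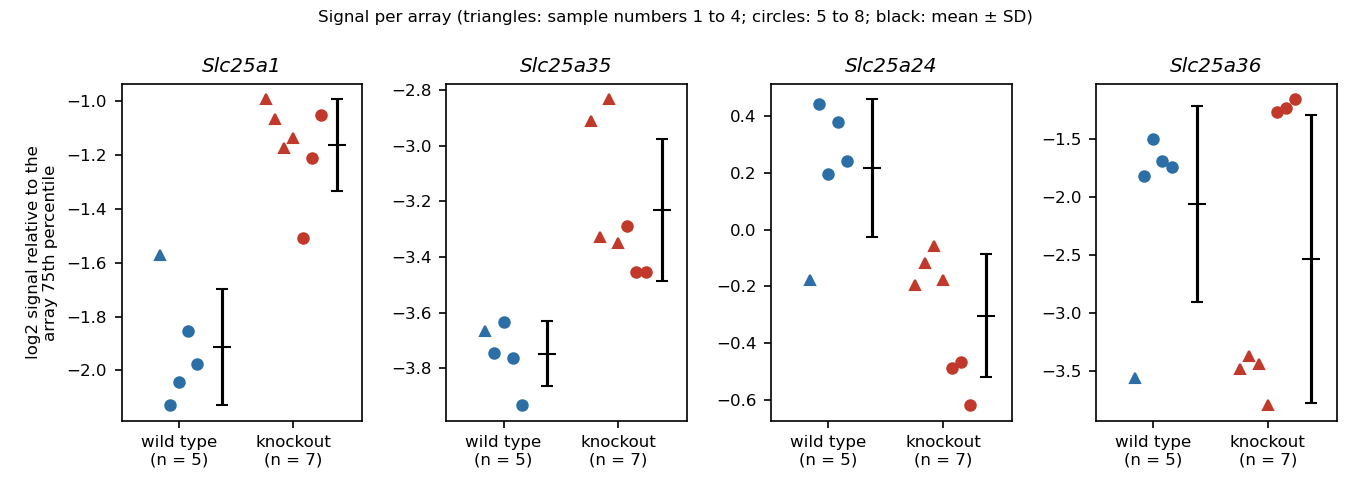
Log2 signal relative to the array's 75th percentile (vertical axis, 1 scale per panel) for Slc25a1, Slc25a35, Slc25a24 and Slc25a36 in 5 wild-type and 7 knockout cultures, with mean and SD in black; triangles are sample numbers 1 to 4 and circles 5 to 8. The groups do not overlap for Slc25a1 and Slc25a35, WT 3 sits among the knockout cultures for Slc25a24, and Slc25a36 separates by sample number.

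Carriers of adenine nucleotides and phosphate formed a group of 7 members, of which 4 were tested and 0 passed, with a median difference of -0.092. Slc25a24 encodes a calcium-regulated carrier that exchanges ATP-magnesium for phosphate and so sets the adenine nucleotide pool of the matrix. Its signal was -0.20, -0.12, -0.06, -0.18, -0.49, -0.47 and -0.62 in KO 1 to 7, and -0.18, 0.44, 0.20, 0.38 and 0.24 in WT 3, 5, 6, 7 and 8. WT 3 lay within the knockout range, and the other 4 wild-type cultures lay above every knockout culture. The means were -0.30 ± 0.22 (SD, n = 7) and 0.22 ± 0.24 (SD, n = 5), a difference of -0.52 ± 0.15 (SE; limma adjusted p = 0.108).

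For Slc25a24 the call depended on which arrays, or which block, entered the fit. Its adjusted p by limma passed with the slide as a block (-0.59, adjusted p = 0.0307), where 2.74% of all features passed. It also passed without WT 3 (-0.62, limma adjusted p = 0.0309). Over all 14743 features 383 were higher and 267 lower there, against 103 and 58 with all arrays. Among sample numbers 5 to 8 alone it passed as well (-0.84, limma adjusted p = 0.0185), as did 4.67% of all features. Among sample numbers 1 to 4 alone, where WT 3 is the 1 wild-type culture, the difference was 0.041. The test of the change in effect between the numbers, the interaction term, gave 0.88 ± 0.20 (SE; limma adjusted p = 0.0560). At a limma adjusted p under 0.05, 0 of 29 carriers passed it, against 1.94% of all features in that fit. At an unadjusted p under 0.05, 4 of the 29 did. The share of all features at the unadjusted threshold is not given here, so the 4 are not compared with it.

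The mitochondrial phosphate carrier Slc25a3, which supplies phosphate for ATP synthesis, had a knockout median of 2.81 (lowest 2.73, highest 3.40) and was 1.84, 2.72, 3.10, 0.98 and 2.78 in WT 3, 5, 6, 7 and 8. WT 3 and WT 7 were low, and the other wild-type cultures lay close to or within the knockout range. The difference of 0.64 ± 0.31 (SE) did not pass (limma adjusted p = 0.337), and it was 0.32 without WT 7. Slc25a25, another calcium-regulated ATP-magnesium/phosphate carrier, differed by -0.28 ± 0.21 (SE; limma adjusted p = 0.548), and Slc25a42, which brings coenzyme A into the matrix in exchange for adenine nucleotides, by 0.097 ± 0.18 (SE; limma adjusted p = 0.848). Among sample numbers 5 to 8 the Slc25a25 mean was -0.35 in knockout and 0.34 in wild type. Among numbers 1 to 4 it was 0.42 in knockout, and WT 3 was at 0.52. The remaining members of the group, Slc25a23, Slc25a41 and Slc25a54, were well above background on 0 arrays. The adenine nucleotide translocases left out by the choice of members differed by 0.26 ± 0.30 (SE; limma adjusted p = 0.712) for Slc25a4 and 0.37 ± 0.14 (SE; limma adjusted p = 0.226) for Slc25a5. Slc25a4 was 3.51, 3.48, 3.22 and 3.08 in KO 4, KO 5, WT 6 and WT 7, the arrays of slide 3, and between 1.92 and 2.68 on all other arrays.

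Members with no settled substrate numbered 7, of which 3 were tested, Slc25a35, Slc25a43 and Slc25a45, and 0 passed. All were dim, so which of them entered the test depended in part on the group in which they were brighter. Slc25a35 had a signal of -2.91, -3.33, -2.83, -3.35, -3.29, -3.45 and -3.45 in KO 1 to 7, and of -3.66, -3.74, -3.63, -3.76 and -3.93 in WT 3, 5, 6, 7 and 8. Every knockout culture was above every wild-type culture, at means of -3.23 ± 0.25 (SD, n = 7) and -3.75 ± 0.12 (SD, n = 5). The difference of 0.52 ± 0.14 (SE) was not past the threshold (limma adjusted p = 0.0960), and without 1 array at a time it was 0.45 to 0.55 with limma adjusted p of 0.0664 to 0.229. After normexp background correction it was 0.080 (limma adjusted p = 0.985). Its spots were dim, well above background on 7 knockout and 4 wild-type arrays.

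Slc25a43 differed by 0.62 ± 0.35 (SE; limma adjusted p = 0.418), and its spot stood above background on 6 knockout arrays and 1 wild-type array. Slc25a45 differed by 0.42 ± 0.32 (SE; limma adjusted p = 0.551), and its spot did so on 4 and 2. Both ranges overlapped: Slc25a43 ran from -4.80 to -2.86 in knockout and -4.87 to -3.48 in wild type, and Slc25a45 from -5.50 to -3.50 and -5.18 to -4.01. Slc25a34, Slc25a47, Slc25a48 and Slc25a53 were well above background on 0 arrays.

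Carriers of aspartate and glutamate showed no difference past the threshold in the 2 tested members. Slc25a13, the calcium-regulated aspartate-glutamate carrier that drives the malate-aspartate shuttle, had a knockout median of -0.62 (lowest -0.99, highest -0.39) and was -0.72, -0.55, -0.97, -1.03 and -0.55 in WT 3, 5, 6, 7 and 8. The groups overlapped through most of their range, with a difference of 0.12 ± 0.15 (SE; limma adjusted p = 0.737). Slc25a22, a glutamate carrier, differed by -0.042 ± 0.17 (SE; limma adjusted p = 0.939), and its relative Slc25a18 was well above background on 0 arrays. Of the shuttle's enzymes 0 of 4 passed, with a median of 0.22; Got2, the mitochondrial aspartate aminotransferase, had the smallest p of them, at 0.28 ± 0.15 (SE; limma adjusted p = 0.392).

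Among carriers of other amino acids 3 of 5 were tested and 0 passed, with a median of 0.028. Slc25a38, which brings glycine into the matrix for heme synthesis, had a knockout median of -2.69 (lowest -3.12, highest -2.45), against -2.66, -3.03, -3.15, -2.82 and -2.89 in WT 3, 5, 6, 7 and 8. The wild-type cultures lay inside the knockout range apart from WT 6, which was slightly below it, and the difference was 0.17 ± 0.15 (SE; limma adjusted p = 0.606). Slc25a15, the ornithine carrier of the urea cycle, differed by 0.028 ± 0.14 (SE; limma adjusted p = 0.950), while its other tested probe gave 0.58 (limma adjusted p = 0.280). Slc25a44, a carrier of branched-chain amino acids, differed by -0.061 ± 0.18 (SE; limma adjusted p = 0.911). Slc25a29, a carrier of basic amino acids, was well above background on 3 arrays, 2 knockout and 1 wild type, and Slc25a2, an ornithine carrier, on 0.

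Carriers of cofactors and other nucleotides included 6 tested members of 7, and 0 passed. Of the 6 differences 4 were below 0, and the median was -0.24. Of those below 0, Slc25a16, Slc25a32 and Slc25a36 were also lower in sample numbers 1 to 4, as described below. Among numbers 5 to 8 their knockout means were -2.36, -1.96 and -1.22, against -2.36, -1.95 and -1.69 in wild type. For Slc25a33 these means were -4.35 and -3.58. The share of the sample numbers in the median was not tested. Slc25a33 and Slc25a36 carry pyrimidine nucleotides into mitochondria. The Slc25a33 signal had a knockout median of -4.28 (lowest -4.86, highest -3.72) and was -4.89, -3.34, -3.72, -4.15 and -3.08 in WT 3, 5, 6, 7 and 8. The groups overlapped, 3 knockout and 3 wild-type arrays were well above background, and the difference was -0.42 ± 0.30 (SE; limma adjusted p = 0.522); among sample numbers 1 to 4 alone it was 0.69.

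None of the other tested cofactor carriers passed. Slc25a16, linked to coenzyme A supply of the matrix, differed by -0.33 ± 0.24 (SE; limma adjusted p = 0.536), and Slc25a17, the peroxisomal carrier of coenzyme A and other cofactors, by 0.23 ± 0.18 (SE; limma adjusted p = 0.560). Slc25a32, linked to folate and FAD transport, differed by -0.14 ± 0.18 (SE; limma adjusted p = 0.745). Slc25a26, the S-adenosylmethionine carrier, was well above background on 3 arrays, KO 5, 6 and 7, and on 0 wild-type arrays, and was not tested.

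Mitochondrial one-carbon enzymes, which use folate in the matrix, had a median difference of -0.37 over 6 tested genes, of which 0 passed. At an unadjusted limma p under 0.05, 2 of the 6 were lower (33.3%), against 15.6% of all features in either direction. Shmt2, the mitochondrial serine hydroxymethyltransferase, had a knockout median of 1.43 (lowest 1.08, highest 1.53) and was 1.74, 1.88, 1.81, 1.61 and 1.98 in WT 3, 5, 6, 7 and 8. All knockout cultures lay below all wild-type cultures, by 0.45 ± 0.12 (SE; limma adjusted p = 0.0880). Mthfd2, a methylene-tetrahydrofolate dehydrogenase, differed by -0.47 ± 0.15 (SE; limma adjusted p = 0.156). Gldc, also of this list, differed by -0.81 ± 0.47 (SE) and followed the sample numbers. It ran from -4.52 to -3.12 in KO 1 to 4 and was -3.31 in WT 3. In KO 5 to 7 it was -2.11, -1.90 and -1.78, and in WT 5 to 8 -2.06, -1.93, -1.35 and -1.84. The share of the sample numbers in this list median was not tested.

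Slc25a20, which exchanges acylcarnitines for carnitine so that fatty acids reach the matrix, was among the carriers with the smallest spread. Its knockout median was -1.02 (lowest -1.43, highest -0.91), against -1.16, -1.01, -0.99, -1.05 and -0.97 in WT 3, 5, 6, 7 and 8, and all wild-type cultures lay inside the knockout range. The difference was -0.059 ± 0.12 (SE; limma adjusted p = 0.862) and changed sign under 4 alternatives. Its partners had a median of -0.43, and 1 of 5 fell: Cpt1b, a carnitine palmitoyltransferase of the outer membrane, at -0.74 ± 0.15 (SE; limma adjusted p = 0.0418, with 6 knockout cultures, since the KO 1 spot was uneven and left out). The Cpt1b signal had a knockout median of -0.95 (lowest -1.17, highest -0.67) and was -0.35, 0.04, -0.55, 0.02 and -0.22 in WT 3, 5, 6, 7 and 8, so that these groups did not overlap. The Cpt1b call held without WT 3 and was lost without any other single array (-0.83 to -0.68 over the 12 omissions, limma adjusted p of 0.0247 to 0.129). Cpt1a was -2.64, -3.09, -3.00 and -2.50 in KO 1 to 4, and -1.33, -1.23 and -0.97 in KO 5 to 7. Cpt1c was -0.81, -1.06, -0.92 and -0.53 in KO 1 to 4, and -0.19, -0.22 and -0.09 in KO 5 to 7. WT 3 was at -2.67 for Cpt1a, within the range of KO 1 to 4, and at -0.35 for Cpt1c, above that range. WT 5 to 8 were at -0.48, -0.85, -0.53 and -1.01 for Cpt1a and -0.03, -0.24, 0.51 and -0.48 for Cpt1c. Crat went the other way among knockout cultures, at 2.26, 2.18, 2.09 and 1.74 in KO 1 to 4 against 0.59, 1.47 and 1.30 in KO 5 to 7. For Crat WT 3 was at 2.20 and WT 5 to 8 at 1.29, 1.03, 1.06 and 1.40. The share of the sample numbers in the list median was not tested.

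The glutathione carriers Slc25a39 and Slc25a40 import glutathione into the matrix, and 0 of 2 passed. Slc25a39 had the smallest pooled SD of the tested carriers, 0.143, with a knockout median of 2.09 (lowest 1.97, highest 2.42) and values of 1.81, 2.02, 2.10, 2.02 and 1.99 in WT 3, 5, 6, 7 and 8. WT 3 was the lowest culture and the others lay within the knockout range, a difference of 0.15 ± 0.12 (SE; limma adjusted p = 0.588), while its other tested probe gave 0.39 (limma adjusted p = 0.384). Slc25a40 differed by 0.24 ± 0.24 (SE; limma adjusted p = 0.679).

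Slc25a28 and Slc25a37 encode the mitoferrins, which bring iron into the matrix for heme and iron-sulphur clusters, and 0 of 2 passed. Slc25a28 had a knockout median of 2.07 (lowest 1.67, highest 2.56) and was 2.38, 2.16, 1.42, 1.17 and 2.11 in WT 3, 5, 6, 7 and 8. WT 6 and WT 7 lay below the knockout range and the others within it, a difference of 0.27 ± 0.23 (SE; limma adjusted p = 0.597) that was -0.22 within slide 1. WT 6 and WT 7 shared slide 3 with KO 4 and KO 5, the lowest knockout cultures at 1.87 and 1.67. Slc25a37 differed by -0.21 ± 0.39 (SE; limma adjusted p = 0.850), and its sign turned under 5 alternatives. Its signal averaged -3.89 in KO 1 to 4 against -4.40 in WT 3, and -2.80 in KO 5 to 7 against -2.91 in WT 5 to 8. Of 7 iron-sulphur and heme genes 0 passed, with a median of 0.26; Nfs1, the cysteine desulfurase, differed by 0.39 ± 0.12 (SE; limma adjusted p = 0.139) and Fech, ferrochelatase, by 0.56 ± 0.21 (SE; limma adjusted p = 0.202).

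The uncoupling-protein-like carriers Slc25a14 and Slc25a30 did not pass, and Slc25a27 was well above background on 0 arrays. Slc25a30 had a knockout median of -2.48 (lowest -3.19, highest -2.10) against -1.77, -2.23, -2.70, -2.69 and -2.55 in WT 3, 5, 6, 7 and 8. WT 3 was the highest culture of all and the other 4 lay in the knockout range; the difference was -0.22 ± 0.21 (SE; limma adjusted p = 0.668). Slc25a14 differed by 0.069 ± 0.16 (SE; limma adjusted p = 0.877).

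The outer membrane member Slc25a46 had a knockout median of -0.20 (lowest -0.34, highest 0.03) and was 0.04, 0.12, -0.08, -0.39 and -0.07 in WT 3, 5, 6, 7 and 8. WT 7 was the lowest culture and WT 5 the highest, so the wild-type range enclosed the knockout range. The difference was -0.13 ± 0.12 (SE; limma adjusted p = 0.649).

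A further pattern followed the sample numbers in the labels. Numbers 1 to 4 hold 4 knockout cultures and 1 wild-type culture (WT 3), and numbers 5 to 8 hold 3 knockout and 4 wild-type cultures; the sources used here do not say what the numbers stand for. The boundary between 4 and 5 was known from earlier results of these arrays, so the values by number describe them and are no independent test. With genotype in the same fit, 7 of 29 carriers differed by number at a limma adjusted p under 0.05, against 27.9% of all features. In that fit the difference by number was larger in size than that by genotype for 19 of the 29. The share over all features is not given here, so this count is not read as particular to the carriers. The targeted gene Vdac1 followed the numbers too, at 0.96 ± 0.15 (SE; limma adjusted p = 0.000584) higher in numbers 1 to 4.

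Slc25a36 showed this most, and is described here for that reason after its values were seen. Its signal was -3.48, -3.37, -3.44 and -3.80 in KO 1 to 4 and -1.27, -1.24 and -1.16 in KO 5 to 7; it was -3.56 in WT 3 and -1.82, -1.51, -1.69 and -1.74 in WT 5 to 8. Cultures numbered 1 to 4 lay below all others whatever their genotype, and within numbers 5 to 8 all knockout cultures lay above all wild-type cultures. The difference by number was -2.16 ± 0.13 (SE; limma adjusted p = 1.79e-06). The difference by genotype was -0.47 ± 0.56 (SE; limma adjusted p = 0.727) without the number in the fit and 0.33 ± 0.13 (SE; limma adjusted p = 0.161) with it, a change of sign. Its other tested probe gave -0.98 without the number (limma adjusted p = 0.395).

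**Figure D3:**
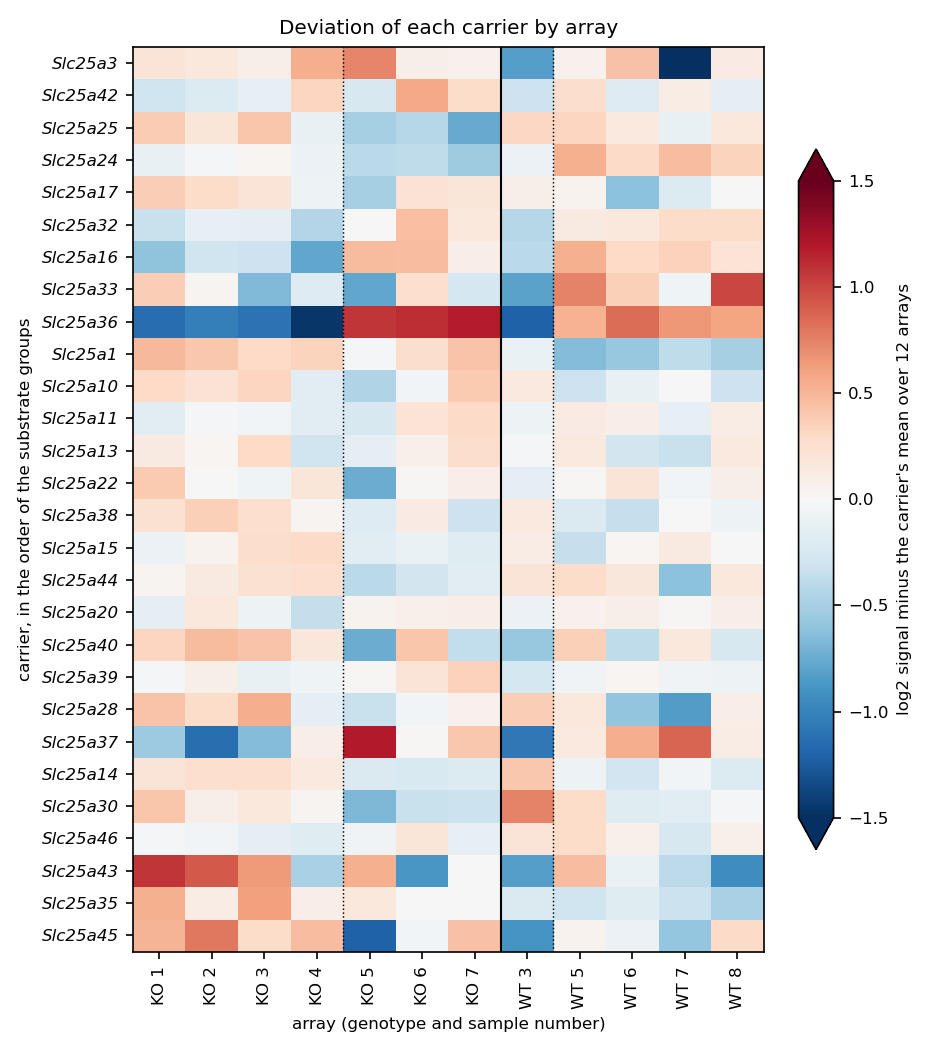
Log2 signal of 28 of the 29 tested carriers minus that carrier's mean over the 12 arrays (colour), by array (columns: 7 knockout, then 5 wild type; dotted lines separate sample numbers 1 to 4 from 5 to 8). Slc25a36 is low in KO 1 to 4 and WT 3 and high elsewhere, while Slc25a1 is lower in WT 5 to 8 than in the knockout cultures.

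The ranges of the numbers also did not meet for Slc25a14, Slc25a16 and Slc25a32, making 4 such carriers of 29 with Slc25a36, against 14.0% of all features. Carriers lower in numbers 1 to 4 were Slc25a36, Slc25a37 (-1.22, limma adjusted p = 0.00511), Slc25a16 (-0.81, limma adjusted p = 0.000972) and Slc25a32 (-0.52, limma adjusted p = 0.00715). Higher there were Slc25a30 (0.67, limma adjusted p = 0.00304), Slc25a25 (0.59, limma adjusted p = 0.0150) and Slc25a14 (0.47, limma adjusted p = 0.00397). With the number as a block, Slc25a1 differed by 0.66 between genotypes (limma adjusted p = 0.0108), and it was again the 1 carrier to pass, against 5.09% of all features. Slc25a1 differed by 0.74 among numbers 5 to 8 alone (limma adjusted p = 0.0433) and by 0.48 among numbers 1 to 4 alone (limma adjusted p = 0.236).

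**Figure D4:**
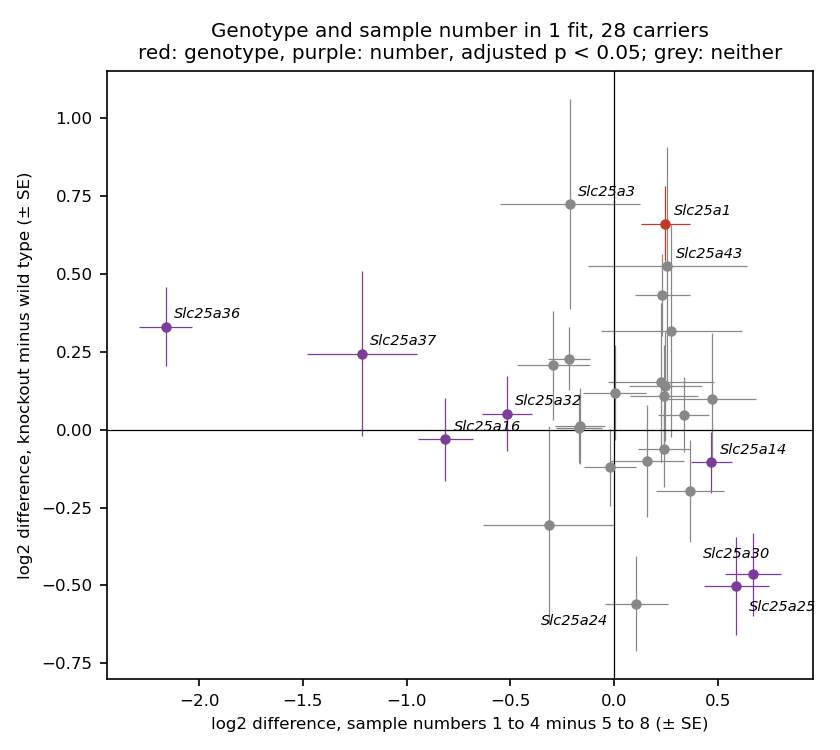
Difference by sample number (horizontal axis, numbers 1 to 4 minus 5 to 8) against difference by genotype (vertical axis, knockout minus wild type) from 1 fit, log2 scale with SE bars, for 28 of the 29 carriers; red marks genotype and purple marks number at an adjusted p under 0.05. Slc25a1 is the carrier marked for genotype, at 0.66, and 7 carriers are marked for number, Slc25a36 farthest out at -2.16.

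Upstream windows of 250 bases were available from RefSeq for 37 starts of 35 member genes, with a median GC content of 56.8%, against 51.2% over all 33469 windows. Searched on both strands, the GC box GGGCGG was in 21 of the 37 (56.8%) and in 30.5% of all windows, and the CCAAT box in 20 (54.1%) and in 34.0%. The ETS motif CCGGAAG was in 5 (13.5%, against 7.27%) and the E-box CACGTG in 3 (8.11%, against 5.59%). TCACNCCAC, a sterol element, and TGATGNAA, an amino acid response element, were in 0 member windows, against 0.974% and 3.40% of all. The windows of the carriers next in order by p are given for comparison with that of Slc25a1, at chr10:54172115-54172364 for Slc25a35 and chr2:199449175-199449424 for Slc25a24 (GRCr8, both plus strand), with the same motifs in capitals, 3 and 2 matches.
Slc25a35 promoter: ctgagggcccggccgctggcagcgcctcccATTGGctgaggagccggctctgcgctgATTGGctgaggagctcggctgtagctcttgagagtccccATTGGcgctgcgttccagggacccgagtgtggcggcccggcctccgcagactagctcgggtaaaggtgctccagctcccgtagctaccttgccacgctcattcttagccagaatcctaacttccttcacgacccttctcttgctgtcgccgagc
Slc25a24 promoter: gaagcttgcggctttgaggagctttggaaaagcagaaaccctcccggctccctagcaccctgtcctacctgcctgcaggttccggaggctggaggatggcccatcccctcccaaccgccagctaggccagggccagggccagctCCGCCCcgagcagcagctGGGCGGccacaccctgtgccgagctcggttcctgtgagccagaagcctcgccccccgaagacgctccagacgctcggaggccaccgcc
Slc25a35's matches were all CCAAT boxes, Slc25a24's all GC boxes, and Slc25a1's window held both.

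Genes that work with the carriers numbered 53 over 8 lists, of which 49 were tested, 1 was higher and 1 lower (7 and 5 at an unadjusted limma p under 0.05). These were 4.08% of the 49 at the adjusted threshold and 24.5% at the unadjusted one, against 1.09% and 15.6% of all features. The knockout and wild-type groups did not overlap for Shmt2 and Cpt1b, 4.08% of the 49, against 2.73% of all features. List medians are from the fit without the sample number. Of the import route, in which cytosolic and intermembrane chaperones hand carriers to the TIM22 complex, 0 of 9 passed, with a median of -0.13. Timm8a1, a small intermembrane chaperone, differed by -0.58 ± 0.15 (SE; limma adjusted p = 0.0762), and Agk, a lipid kinase that is also a TIM22 subunit, by 0.54 ± 0.22 (SE; limma adjusted p = 0.264). Members of the family under other names gave 0 passing of 5 tested: Mtch1 and Mtch2, carrier homologues of the outer membrane, differed by 0.42 ± 0.19 (SE; limma adjusted p = 0.313) and -0.30 ± 0.14 (SE; limma adjusted p = 0.309), and Ucp1 and Ucp3 were well above background on 0 arrays. The file's Mcart1, which RefSeq lists as Slc25a51, a carrier of NAD, differed by -0.34 ± 0.25 (SE; limma adjusted p = 0.527).

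Of inner membrane carriers from other families, 9 of 10 were tested and 1 rose, Sfxn5, a sideroflexin. Its knockout median was -2.33 (lowest -2.62, highest -1.97) and its wild-type values were -2.49, -3.30, -3.59, -3.71 and -3.64 in WT 3, 5, 6, 7 and 8. WT 3 lay within the knockout range and the other 4 wild-type cultures below it, as for Slc25a24 in the opposite direction. The difference was 1.03 ± 0.21 (SE; limma adjusted p = 0.0409). The call held without KO 5 or WT 3 (1.24 without WT 3) and was lost without any other single array, with limma adjusted p of 0.00239 to 0.124 and differences of 0.94 to 1.24. It was 0.32 after normexp background correction (limma adjusted p = 0.722). Mpc1, a subunit of the mitochondrial pyruvate carrier, differed by 0.36 ± 0.13 (SE; limma adjusted p = 0.211).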

How the data were processed

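The 12 arrays (7 knockout, 5 wild type; 3 slides, 2 scan days, both genotypes on every slide) were grouped by the sample labels. Slide 2 held 3 knockout arrays, KO 1 to 3, and 1 wild-type array, WT 5. Total RNA was extracted with Trizol, per the labels' protocols. Images were read with Agilent Feature Extraction 10.7 per the submitters' processing notes, which differs from the version in the file headers. Per the file headers, the deposited scanner output gives each spot's intensity (linear, after the software's background treatment) and, as other columns, 0-or-1 flags for brightness over background, saturation and uneven spots. The deposited table has log2 values, median 3.06, alike in distribution across arrays as quantile normalization leaves them (the lowest Spearman correlation with an array's scanner signal was 0.999); it served as an alternative.

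Uneven and outlier spots and controls were left out, the log2 processed signals of repeated spots were averaged, and the array's 75th percentile was subtracted. No spot was saturated. Each gene name was represented by its brightest probe (levels of different probes were not compared), and features well above background on at least 5 of 12 arrays were tested with limma 3.58.1 in R 4.3.3 (lmFit, eBayes; two-sided, Benjamini-Hochberg over all 14743 features, threshold 0.05). The filter was just met by Slc25a33 and Slc25a45, on 6 arrays each, and just missed by Slc25a26 and Slc25a29, on 3. The number of arrays limits the precision. On simulated arrays, tested on 14730 features with 200 changed, this fit recovered 5% of changes of 0.5 and 61% of changes of 1 (log2), with 2 false calls. The simulated noise was independent between features and arrays and held no pattern by sample number, so these rates need not hold for the real arrays. Members, gene lists and the split by sample number were chosen with earlier results of these data known. Values in full were given for carriers past the adjusted threshold with or without the number block, past an unadjusted p of 0.05, and with the smallest p of each substrate group; Slc25a3 and Slc25a36 were added after their values were seen. Of related lists, up to 3 genes past the unadjusted threshold, or the gene with the smallest p, were named. Gldc was named outside this rule, after its values were seen. Slc25a12 and Slc25a31 were not analysed here, and 1 tested member, counted throughout, is not reported on its own or drawn here. Of the 42 members, 36 matched the RefSeq gene table by accession and the others by symbol. Coordinates of probes are those of the files. Alternatives were quantile normalization, normexp (offset 50), other filters, the deposited table, single probes, slide and scan day as blocks, single slides, sample numbers (where WT 3 stands alone among numbers 1 to 4, it is assumed to vary like the other cultures), a replicate block and each array left out; scan day was added after seeing the data.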

Additional observations from a re-analysis of the deposited data

Results flagged for a closer look

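In 58 groups of arrays (each tested carrier in each genotype), 7 carriers had 1 array lying far from the rest of its group: its gap to the nearest array, over the group's range, was past Dixon's critical value, which is set so that chance marks about 1 group in 20. In the knockout group KO 5 stood low for Slc25a1 (-1.5066), Slc25a22 (-1.5159) and Slc25a45 (-5.5014). In the wild-type group WT 3 stood low for Slc25a32 (-2.5886) and Slc25a36 (-3.5568), WT 5 for Slc25a15 (-0.3434) and WT 7 for Slc25a44 (0.1079). For Slc25a32 and Slc25a36, WT 3 lay within the range of KO 1 to 4. Without KO 5 the Slc25a1 difference passed the limma threshold as it did with it.

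Slc25a26, which brings S-adenosylmethionine into the matrix, was too dim for the comparison, and its probe was well above background on 3 knockout arrays and on 0 wild-type arrays. Its signal was -3.28, -3.91 and -3.68 in KO 5, 6 and 7, ran from -6.04 to -4.37 in KO 1 to 4, and was -5.17, -5.22, -4.29, -5.76 and -4.84 in WT 3, 5, 6, 7 and 8. No fold was computed for it.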

How the results depend on the processing

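The number of carriers higher in knockout was 1, and it was 0 by limma with normexp (2 at an unadjusted p under 0.05), with no filter on dim probes, within slide 1, within slide 3, among numbers 1 to 4 alone and with the replicate block. The number lower, 0, became 1 with the slide as a block, 2 within slide 2 and 1 among numbers 5 to 8 alone; without 1 array both counts ran from 0 to 1. Over all features, 103 higher and 58 lower became 56 and 48 with quantile normalization, 16 and 9 with normexp, 54 and 50 from the deposited table, 181 and 107 with all 12 arrays required, 253 and 151 with the slide and 230 and 138 with the scan day as a block, 448 and 303 with the number as a block, 340 and 348 in numbers 5 to 8, 47 and 5 in numbers 1 to 4 and 1061 and 923 within slide 2; limma gave 0 and 0 with no filter (1981 unadjusted) and within slides 1 (1761) and 3 (783). Without 1 array they were 9 to 383 and 3 to 267. The related lists' 1 higher gene became 0 with quantile normalization, normexp, no filter, all 12 arrays required, the deposited table, slides 1 and 3, numbers 1 to 4 and the replicate block, 5 within slide 2 and 3 with the number block; the 1 lower gene became 0 with normexp, no filter, slides 1 and 3, either set of numbers and the replicate block, 2 with slide or scan day as a block, 4 within slide 2 and 3 with the number block (0 to 1 and 0 to 2 without 1 array). Vdac1 passed with quantile normalization (-1.33), the stricter filter (-1.23), the deposited table (-1.35), the slide (-1.38), the scan day (-1.26) and the number block (-1.58), and in numbers 5 to 8 (-1.80); it did not pass within slides 1 (-1.97), 2 (-0.58) or 3 (-1.38), in numbers 1 to 4, with normexp, with no filter or with the replicate block, and it ran from -1.34 to -1.10 without 1 array. Within slide 2, KO 1 to 3 stood against WT 5 alone, so its differences and counts cannot separate genotype from sample number. Of the 29 carriers, 21 turned sign under at least 1 alternative. Among the 11 given in full by rule, 6 did: Slc25a20 (0.082 in slide 1, 0.0033 with the number block, 0.012 in numbers 5 to 8, 0.020 with the replicate block), Slc25a24 (0.041 in numbers 1 to 4), Slc25a28 (-0.22 in slide 1, -0.097 in numbers 1 to 4), Slc25a33 (0.69 in numbers 1 to 4), Slc25a38 (-0.13 in slide 1) and Slc25a39 (-0.014 in slide 3). Of the other 18, 15 did, among them Slc25a16 (0.38 in slide 1, -0.93 in slide 2), Slc25a10 (-0.26 in slide 3), Slc25a14 (-0.10 with the number block) and Slc25a15 (-0.19 in slide 1). Slc25a1 kept its direction under all 27 alternatives, passed in 13 and had limma adjusted p of 0.006 to 0.888. The cause of these changes was not tested. Some alternatives changed the number of arrays or features along with the setting. Knockout and wild-type cultures sharing a number (3, 5, 6 and 7) had correlated deviations of 0.461, -0.109, 0.073 and 0.050, so the numbers were not taken as pairs; with the replicate block over these 8 arrays limma called 0 and 0 of 14743 features (1538 unadjusted) and 0 carriers. Probes near background on at least 1 array limit Slc25a16, Slc25a33, Slc25a35, Slc25a36, Slc25a37, Slc25a40, Slc25a43 and Slc25a45.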
